A study of Rattus norvegicus with 43 samples.

Results

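The dose interaction at gestational day 20 (GD20) was examined in rat foreskin: for each gene, the change at 500 mg/kg/day of dibutyl phthalate (DBP) minus the change at 100 mg/kg/day, each dose against the corn oil litters of its own study. By that rule the group means compared come from 22 of the 43 arrays of the series. The other arrays enter the normalization, the probe filter and the estimate of spread. The 22 arrays fall into 4 groups: DBP500 (5 arrays), corn oil of the DBP500 study (6), DBP100 (5) and corn oil of the DBP100 study (6). Pregnant Sprague Dawley rats were gavaged daily on gestational days 16 to 20, the exposed dams with 500 or 100 mg/kg/day DBP and the control dams with corn oil. Pups were taken on GD20, 2 foreskins of a litter were pooled, and RNA was read on Illumina RatRef-12 beadchips. The litter is thus the unit of replication. The remaining 21 arrays come from pups 5 days after birth (PND5), 7 each of DBP500, DBP100 and corn oil. The interaction can be written as 2 parts that share no array: the exposed difference (DBP500 minus DBP100 litters) minus the corn oil difference (DBP500-study minus DBP100-study corn oil litters). In the exposed difference dose and study cannot be told apart, and in the corn oil difference the treatment is the same and only the study differs.

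DBP is a plasticizer whose metabolites lower testosterone synthesis in the fetal rat testis, and growth of the foreskin depends on androgen. In the amino acid response, shortage of an amino acid or stress of the endoplasmic reticulum lets the factor ATF4 be made, which binds composite C/EBP-ATF elements and switches on genes for amino acid synthesis and uptake. A second set of metabolic genes, for fatty acid synthesis, is active in sebaceous gland and adipose cells and depends on NADPH made by enzymes such as malic enzyme. The tissue label was checked against the markers of skin: the basal keratins Krt14 and Krt15, the collagens Col1a1, Col1a2 and Col3a1 and the mesenchymal filament gene Vim were detected on 22 of 22 GD20 arrays, Krt14 at a log2 intensity of 13.94 to 14.33.

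Arrays that stand apart touch every result below. The first principal component (29.7% of variance) separated the studies: DBP500 arrays lay at 15.92 to 25.33 and their corn oil arrays at 12.94 to 33.39, whereas the corn oil arrays of the DBP100 study lay at -32.37 to -18.14. The DBP100 arrays split. Replicates 4 and 5 lay at -26.75 and -25.06, among their corn oil arrays, and replicates 1 to 3 lay at -3.64, -0.58 and 2.65, with 30.57 to 32.78 on the second component (14.4%), where no other array passed 7.93. Array 6 of the DBP500-study corn oil group, at 33.39, had a root mean square deviation of 0.414 from its own group, against 0.275 to 0.318 for the other 5, and DBP100 replicates 4 and 5 had 0.401 each. The median raw signal of an array was 102.9 to 193.2 intensity units, and 44.5% to 49.6% of the 22523 probes were detected on an array.

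A probe was called at a Benjamini-Hochberg adjusted p under 0.05 over the 13577 probes tested. For the interaction 18 probes passed (0.133%), 10 higher (0.0737%) and 8 lower (0.0589%), and 12 of them carry a gene symbol. At an unadjusted p under 0.05 there were 1446 probes (10.7%). The count moved with single arrays: leaving out DBP500 replicates 1 to 5 in turn gave 3, 0, 0, 3 and 15 calls. Leaving out DBP500-study corn oil replicates 1 to 6 gave 0, 0, 7, 0, 2 and 5 calls, and DBP100 replicates 1 to 5 gave 0, 2, 4, 126 and 68. For the DBP100-study corn oil replicates the counts were 14, 0, 27, 6, 1 and 0. In these 22 fits 1080 to 1874 probes had an unadjusted p under 0.05. Without DBP100 replicates 4 and 5 together 645 probes were called, all 18 among them, and without DBP100 replicates 1 to 3, which leaves 2 DBP100 arrays, 4 were called. Scd and Nupr1 were called in both of these fits, each with an adjusted p of 0.0117 in the smaller one.

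**Figure D1:**
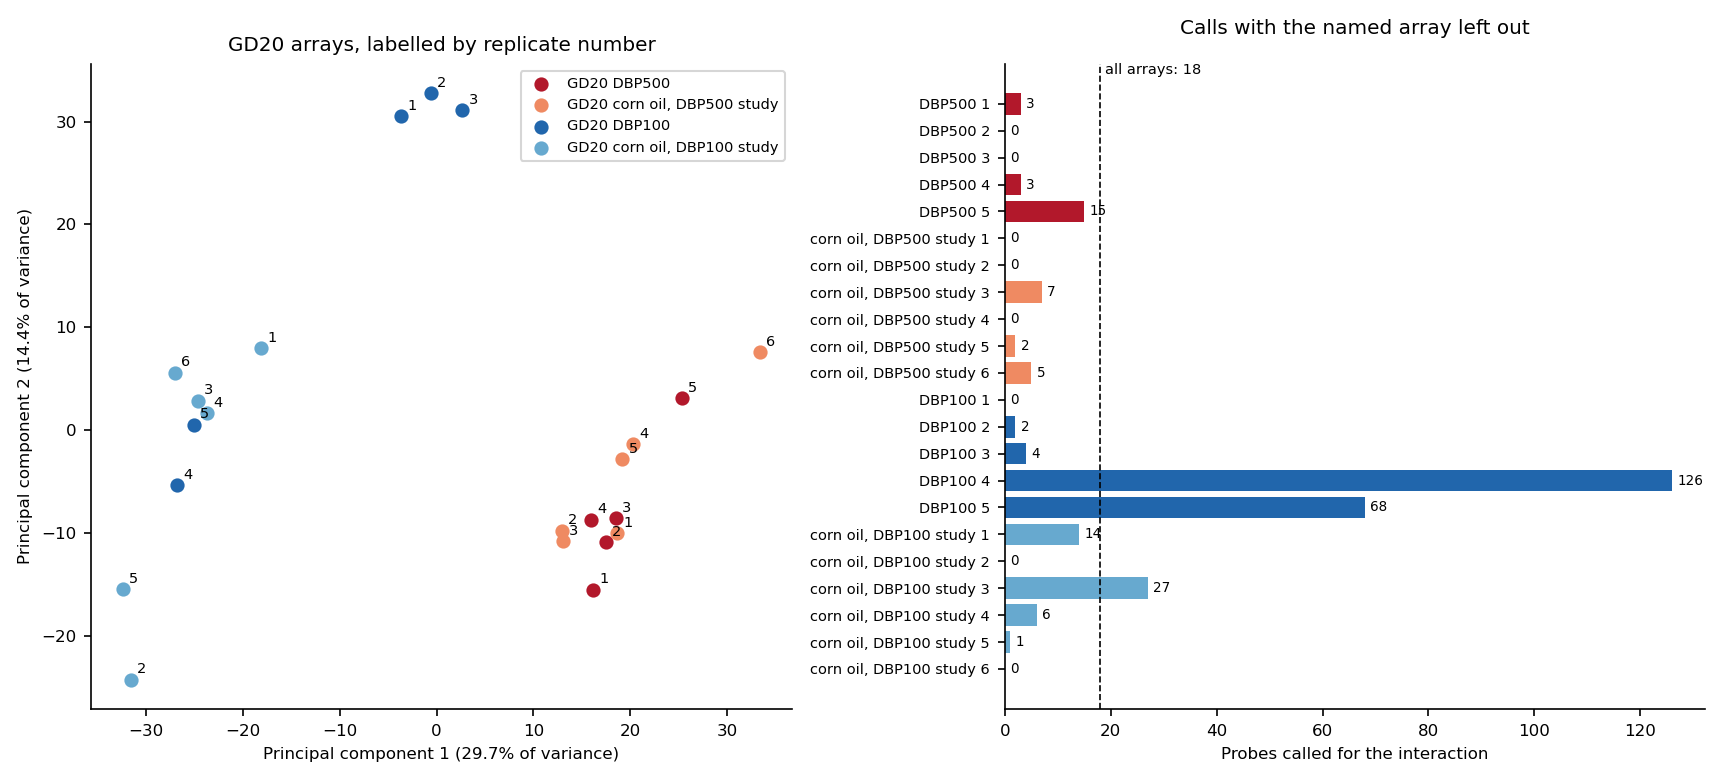
Left, the 22 GD20 arrays on the first and second principal components of log2 intensity, coloured by group and labelled by replicate number. Right, the number of probes called for the interaction when the named array is left out (bars), with the 18 calls of all arrays as a dashed line; DBP100 replicates 1 to 3 sit apart at the top, and leaving out DBP100 replicate 4 or 5 gives 126 or 68 calls.

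Each called gene was placed by which part makes up its interaction. A gene lies on the exposed side where the exposed difference makes up at least 66.7% of the interaction, on the corn oil side where the corn oil difference does, and otherwise on both sides. This is a description and was not tested. Of the 18 called probes 7 lay on the exposed side, 7 on the corn oil side and 4 on both sides. Of the 12 named genes Asns, Adm2, Scd, Pdgfra and Or10ac1 lay on the exposed side, Scn3b, Gria4 and Gne on the corn oil side, and Nupr1, Me1, Glrx and Pomc on both. Over all 13577 probes 40.2% were on the exposed side, 49.4% on the corn oil side and 10.4% on both, so 7 of 18 on the exposed side (38.9%) lies near the background.

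The placement needs both studies on one scale. Normalizing within each study, as in the authors' table, moved the median of all probes by -0.35 in both the exposed and the corn oil difference, and in the authors' table both medians lay at -0.26. On these scales 9 and 10 of the 18 kept their side, and 3 and 4 crossed between the exposed and the corn oil side. When each part was taken relative to its own all-probe median, 15 and 16 kept it and none crossed between the exposed and the corn oil side. Under each of 5 alternative scalings so centred, the exposed difference kept its sign for 18 of 18 and the corn oil difference for 18 of 18. Asns, Scd and Or10ac1 kept their side in 35 of 35 alternative settings, Gria4 in 22, Gne in 23 and Me1 in 27.

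**Figure D2:**
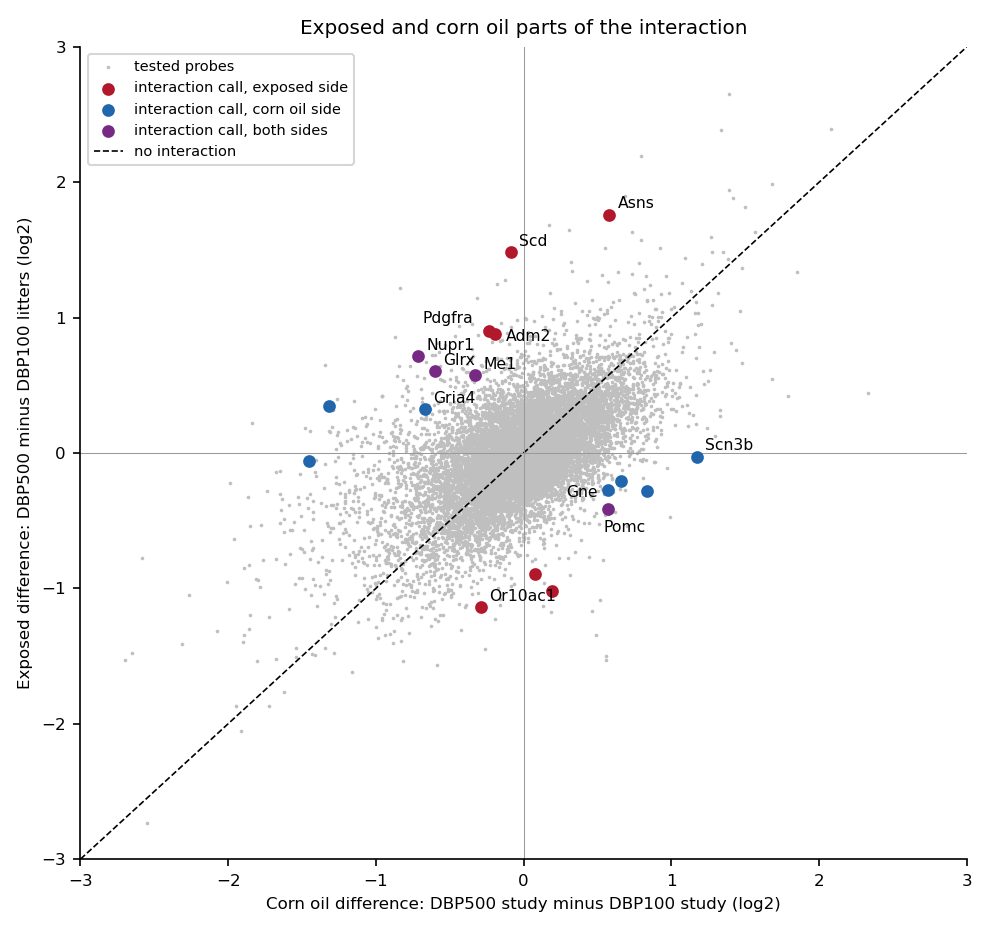
Each tested probe by its corn oil difference (horizontal, log2) and its exposed difference (vertical, log2). Interaction calls are coloured by side and named where a symbol exists, the dashed line marks no interaction, and 8 probes fall outside the axes; the called genes lie far from the line, Asns and Scd above it through the exposed difference and Scn3b below it through the corn oil difference.

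The 3 called genes of the amino acid response were all higher, and they differed in where the interaction came from. Promoter windows of 250 bases before to 50 after the start site (RefSeq, build GRCr8) were found for 11 of the 12 named genes. They are shown for Asns and Nupr1 as the response genes with the largest interactions and for Scd and Me1 as the called pair of lipid synthesis. Capitals mark the matches to TGATGNAA, a core of the C/EBP-ATF composite element, and to TGACNNNGC, a core of the antioxidant response element bound by NRF2. TCACNCCAC, a sterol response core, was searched as well. Both strands were read, no matches overlap, and the letters occur in 3.98%, 12.1% and 1.12% of 33469 rat promoter windows. The windows lie on the minus strand of chr4:36769366-36769665 (Asns), chr1:190645852-190646151 (Nupr1), chr1:253231682-253231981 (Scd) and chr8:96540195-96540494 (Me1).
Asns: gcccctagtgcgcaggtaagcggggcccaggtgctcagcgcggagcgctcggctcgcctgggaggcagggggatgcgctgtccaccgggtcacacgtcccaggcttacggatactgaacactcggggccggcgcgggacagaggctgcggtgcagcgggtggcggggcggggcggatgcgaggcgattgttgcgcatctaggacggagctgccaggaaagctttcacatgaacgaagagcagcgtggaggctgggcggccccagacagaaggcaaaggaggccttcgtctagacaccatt
Nupr1: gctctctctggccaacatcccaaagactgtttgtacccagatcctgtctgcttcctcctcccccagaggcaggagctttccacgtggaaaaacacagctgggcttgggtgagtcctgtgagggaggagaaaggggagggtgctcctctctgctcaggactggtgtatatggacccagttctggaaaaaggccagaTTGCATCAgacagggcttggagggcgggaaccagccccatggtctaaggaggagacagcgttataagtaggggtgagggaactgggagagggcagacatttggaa
Scd: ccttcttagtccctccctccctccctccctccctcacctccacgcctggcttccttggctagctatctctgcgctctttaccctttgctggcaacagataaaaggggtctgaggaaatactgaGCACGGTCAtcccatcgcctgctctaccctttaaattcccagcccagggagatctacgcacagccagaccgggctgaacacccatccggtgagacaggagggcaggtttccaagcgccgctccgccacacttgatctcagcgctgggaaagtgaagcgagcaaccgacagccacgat
Me1: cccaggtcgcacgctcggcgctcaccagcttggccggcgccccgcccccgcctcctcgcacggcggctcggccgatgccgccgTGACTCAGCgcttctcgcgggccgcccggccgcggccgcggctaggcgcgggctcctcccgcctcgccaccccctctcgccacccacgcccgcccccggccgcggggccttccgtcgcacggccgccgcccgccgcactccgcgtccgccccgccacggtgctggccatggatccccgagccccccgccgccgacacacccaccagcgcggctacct
TGATGNAA was found in the Nupr1 window as TTGCATCA, on the opposite strand, at -55 to -48 from the start site. TGACNNNGC was found in the Me1 window as TGACTCAGC at -167 to -159 and in the Scd window as GCACGGTCA, on the opposite strand, at -127 to -119. No searched letters were found in the Asns window or in the other 7 windows.

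Asns encodes asparagine synthetase, which makes asparagine from aspartate and glutamine. Its log2 intensity was 7.64, 7.79, 7.97, 8.21 and 8.23 on the DBP500 arrays, against 6.03, 6.49 and 6.98 (lowest, median, highest) on their corn oil arrays. It was 6.18, 6.38, 6.47, 6.29 and 5.72 on the DBP100 arrays, against 5.50, 6.04 and 6.13 on theirs. Every DBP500 array lay above every array of the other groups. The interaction was 1.18 ± 0.258 (SE, n = 5, 6, 5 and 6; 2.26-fold, adjusted p = 0.0440), from 1.45 ± 0.182 for DBP500 and 0.27 ± 0.182 for DBP100. The exposed difference was 1.76 (adjusted p = 8.42e-08). The corn oil difference, 0.58 (adjusted p = 0.0133), ran the same way and so makes the interaction smaller than the exposed difference.

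Nupr1 encodes a small stress-induced chromatin protein. It read 8.99, 9.89, 10.43, 10.31 and 9.91 on the DBP500 arrays, against 8.12, 8.35 and 8.76 on their corn oil arrays. The DBP100 arrays read 9.46, 9.52, 9.27, 9.07 and 8.62, against 8.64, 9.16 and 9.51 on theirs. The DBP500 arrays were above all their corn oil arrays, and in the DBP100 study 3 of 5 exposed arrays lay within the corn oil range. The interaction was 1.43 ± 0.275 (2.69-fold, adjusted p = 0.0401), made almost equally of an exposed difference of 0.72 (adjusted p = 0.0173) and a corn oil difference of -0.71 (adjusted p = 0.00488). It was 1.77 without DBP100 replicates 1 to 3 and 1.20 without replicates 4 and 5.

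Adm2 encodes intermedin, a vasodilator peptide of the calcitonin family. It was detected on 5 of 5 DBP500 arrays, at 5.73, 5.69, 6.53, 5.69 and 5.90, on 0 of 6 of their corn oil arrays, on 0 of 5 DBP100 arrays and on 1 of 6 of theirs. The undetected groups have only an upper bound, so Adm2 was at least 1.24-fold higher in DBP500 litters than in their corn oil litters (adjusted p = 0.00141) and at least 1.21-fold higher than in DBP100 litters (adjusted p = 0.000666). The fitted interaction, 1.07 ± 0.234 (adjusted p = 0.0440), rests on readings under the detection limit in 3 groups.

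Of 35 genes listed for the amino acid response 28 were tested. Their median interaction was 0.27, with 23 above and 5 below zero, against a median of -0.02 over all tested probes, of which 47.3% lay above zero. The 3 calls above were the list's only ones. They are counted in its values, and the list was chosen with earlier results of these data known. The median exposed difference was 0.29 and the median corn oil difference -0.02, with 9 genes called higher and 1 lower in DBP500 than in DBP100 litters (background 11.3%) and 1 higher and 3 lower between corn oil groups (background 22%). Psph, the last enzyme of serine synthesis, followed next by p, with 10.88 ± 0.226 in DBP500, 10.24 ± 0.148 in their corn oil, 10.07 ± 0.326 in DBP100 and 10.01 ± 0.169 in their corn oil litters (mean ± SD). Its interaction was 0.59 (adjusted p = 0.180) and its exposed difference 0.81 (adjusted p = 4.76e-05). The summed intensity of the list was 35785 to 39949.5 units on DBP500 arrays, against 30263 to 33882 on their corn oil arrays, and 28775 to 33296 on DBP100 arrays, against 29405 to 33793 on theirs, so the DBP500 arrays stood alone.

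Of the cytosolic aminoacyl-tRNA synthetases, which load amino acids onto tRNAs, 16 were tested. Their median interaction was 0.26, 10 higher and 6 lower, and 0 were called in limma's test (5 with an unadjusted p under 0.05, background 10.7%). Lars1 had an interaction of 0.49 (adjusted p = 0.179), Aars1 of 0.48 (0.214), Yars1 of 0.46 (0.369) and Cars1 of 0.43 (0.386), for the leucine, alanine, tyrosine and cysteine enzymes.

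The called lipid genes were Scd, the desaturase that makes oleate from stearate, and Me1, the cytosolic malic enzyme that supplies NADPH for fatty acid synthesis. Scd had the lowest p of all probes. It read 9.12, 9.21, 9.36, 8.88 and 9.37 on the DBP500 arrays, against 7.89, 8.08 and 8.60 on their corn oil arrays. It read 7.34, 7.78, 8.47, 7.54 and 7.39 on the DBP100 arrays, against 7.91, 8.04 and 9.29 on theirs. All 5 DBP500 arrays lay above their corn oil arrays and above all DBP100 arrays, and 4 of 5 DBP100 arrays lay below their corn oil arrays. The interaction was 1.57 ± 0.293 (2.97-fold, adjusted p = 0.0401), from 1.0025 ± 0.207 for DBP500 (adjusted p = 0.0137) and -0.57 ± 0.207 for DBP100 (adjusted p = 0.226). The corn oil groups differed by -0.08 (95% interval -0.48 to 0.31), so the exposed difference of 1.48 (adjusted p = 9.39e-06) carries 94.6% of it.

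Me1 read 6.87, 6.96, 7.20, 7.04 and 6.84 in DBP500, against 6.29, 6.52 and 6.89 in their corn oil litters. In DBP100 litters it read 5.83, 6.31, 6.78, 6.63 and 6.496, against 6.55, 6.96 and 7.23 in theirs. Each DBP500 array exceeded each DBP100 array, while both exposed groups overlapped their corn oil groups. The interaction was 0.90 ± 0.198 (adjusted p = 0.0440), with an exposed difference of 0.57 (adjusted p = 0.00777) and a corn oil difference of -0.33 (adjusted p = 0.0709).

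Across fatty acid and cholesterol synthesis 23 genes were tested, with a median interaction of 0.15, 15 higher and 8 lower. The median exposed difference was 0.005 and the median corn oil difference -0.02. The DBP500 effect had a median of -0.003, 11 higher and 12 lower, and the DBP100 effect one of -0.16, 7 higher and 16 lower. Scd and Me1 were the calls and are counted in these values. Elovl3, a fatty acid elongase of sebaceous gland and skin, was detected on 5 of 5 DBP500 arrays, 3 of 6 of their corn oil arrays, 0 of 5 DBP100 arrays and 2 of 6 of theirs, and had an interaction of 1.34 (adjusted p = 0.174). Fads1, the delta-5 desaturase, went the other way at -0.40 (adjusted p = 0.437). Scd and Elovl3 also belong to the list of hair follicle and sebaceous genes (12 tested, median 0.29, 9 higher and 3 lower), whose summed intensity was 5890 to 6533 units in DBP500, against 4310 to 5111 in their corn oil litters, and 4178 to 5211 in DBP100, against 4323 to 5650 in theirs. Whether the share of sebaceous cells differed was not tested, and in pooled tissue more cells and more RNA per cell cannot be told apart.

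Glrx encodes glutaredoxin, which reduces glutathionylated proteins. DBP500 arrays read 11.05, 10.97, 10.17, 10.38 and 9.89, against 9.85, 9.89 and 10.003 in their corn oil litters. DBP100 arrays read 9.73, 10.26, 9.82, 9.95 and 9.68, against 9.86, 10.44 and 11.40 in theirs. In the DBP500 study 4 of 5 exposed arrays lay above all corn oil arrays, and in the DBP100 study 3 of 5 lay below all. The interaction, 1.21 ± 0.264 (adjusted p = 0.0440), joined an exposed difference of 0.61 (adjusted p = 0.0367) to a corn oil difference of -0.60 (adjusted p = 0.0123). None of the other 22 tested redox and NRF2 target genes was called or had an unadjusted p under 0.05, and the list's median was 0.05.

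Pdgfra encodes the platelet-derived growth factor receptor alpha of mesenchymal cells. It read 10.40, 10.47, 11.01, 10.44 and 10.18 in DBP500, against 9.30, 9.57 and 10.11 in their corn oil litters. In DBP100 litters replicates 1 to 3 read 9.36, 9.28 and 9.12 and replicates 4 and 5 read 10.06 and 10.18, against 9.68, 9.93 and 9.996 in theirs. The DBP100 arrays thus lay on either side of their whole corn oil range, along the split of the principal components. The interaction was 1.14 ± 0.242 (adjusted p = 0.0440) with all arrays, 0.62 (adjusted p = 1.0) without DBP100 replicates 1 to 3 and 1.48 (adjusted p = 9.76e-05) without replicates 4 and 5. Pdgfra was the only call among 23 fibroblast and matrix genes (median -0.09), and the matrix genes Thbs2, an inhibitor of vessel growth, and Ltbp2, which binds fibrillin, had interactions of -1.27 (adjusted p = 0.116) and -1.02 (adjusted p = 0.0983).

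Or10ac1, an olfactory receptor gene, was detected on 0 of 5 DBP500 arrays, 0 of 6 of their corn oil arrays, 5 of 5 DBP100 arrays and 1 of 6 of theirs. The DBP100 arrays read 6.21, 6.64, 6.06, 5.83 and 5.91 and lay above all other GD20 arrays. It was at least 1.45-fold lower in DBP500 than in DBP100 litters (adjusted p = 3.00e-07), and the fitted interaction was -0.85 ± 0.179 (adjusted p = 0.0440).

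Among genes of the corn oil side, Scn3b, a beta subunit of voltage-gated sodium channels, read 7.04, 7.48, 7.48, 6.92 and 7.66 in DBP500, against 7.64, 7.96 and 8.22 in their corn oil litters. It read 7.18, 7.54, 7.49, 7.48 and 7.03 in DBP100, against 5.89, 6.80 and 7.56 in theirs. The exposed groups covered the same range, and all 6 corn oil arrays of the DBP500 study lay above all 6 of the DBP100 study. The exposed difference was -0.03 (95% interval -0.41 to 0.36) and the corn oil difference 1.17 ± 0.175 (adjusted p = 9.94e-06), which left an interaction of -1.20 ± 0.259 (adjusted p = 0.0440). Neither dose was called against its own corn oil group, at -0.61 for DBP500 and 0.59 for DBP100.

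Gria4, an AMPA-type glutamate receptor subunit, was detected on 2 of 5 DBP500 arrays, 0 of 6 of their corn oil arrays, 0 of 5 DBP100 arrays and 6 of 6 of theirs. It was at least 1.16-fold lower in the DBP500-study than in the DBP100-study corn oil litters (adjusted p = 0.00105) and at least 1.13-fold lower in DBP100 litters than in their corn oil litters (adjusted p = 0.0395). The fitted interaction was 0.99 ± 0.218 (adjusted p = 0.0440). Over 16 tested neural channel and receptor genes the median was -0.10, 7 higher and 9 lower, with Gria4 and Scn3b called in opposite directions. The axon guidance ligand Slit1 came closest of the others at -1.17 (adjusted p = 0.0983), detected on 2 of 5 DBP500 arrays, 5 of 6 of their corn oil arrays and 0 of 11 arrays of the DBP100 study.

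Gne, the enzyme that starts sialic acid synthesis, averaged 7.74 ± 0.212 in DBP500, against 8.22 ± 0.102 in their corn oil litters, and 8.02 ± 0.151 in DBP100, against 7.65 ± 0.265 in theirs (mean ± SD). The interaction of -0.85 ± 0.190 (adjusted p = 0.0470) came mostly from the corn oil difference of 0.57 (adjusted p = 0.00130), beside an exposed difference of -0.28 (adjusted p = 0.212). Pomc, the precursor of ACTH and melanocortins, averaged 5.98 ± 0.175 in DBP500, against 6.46 ± 0.207 in their corn oil litters, and 6.39 ± 0.135 in DBP100, against 5.89 ± 0.331 in theirs. All 5 DBP500 arrays lay below their corn oil arrays and below all DBP100 arrays. Its interaction was -0.98 ± 0.221 (adjusted p = 0.0470), with an exposed difference of -0.41 (adjusted p = 0.0951) and a corn oil difference of 0.57 (adjusted p = 0.00488).

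**Figure D3:**
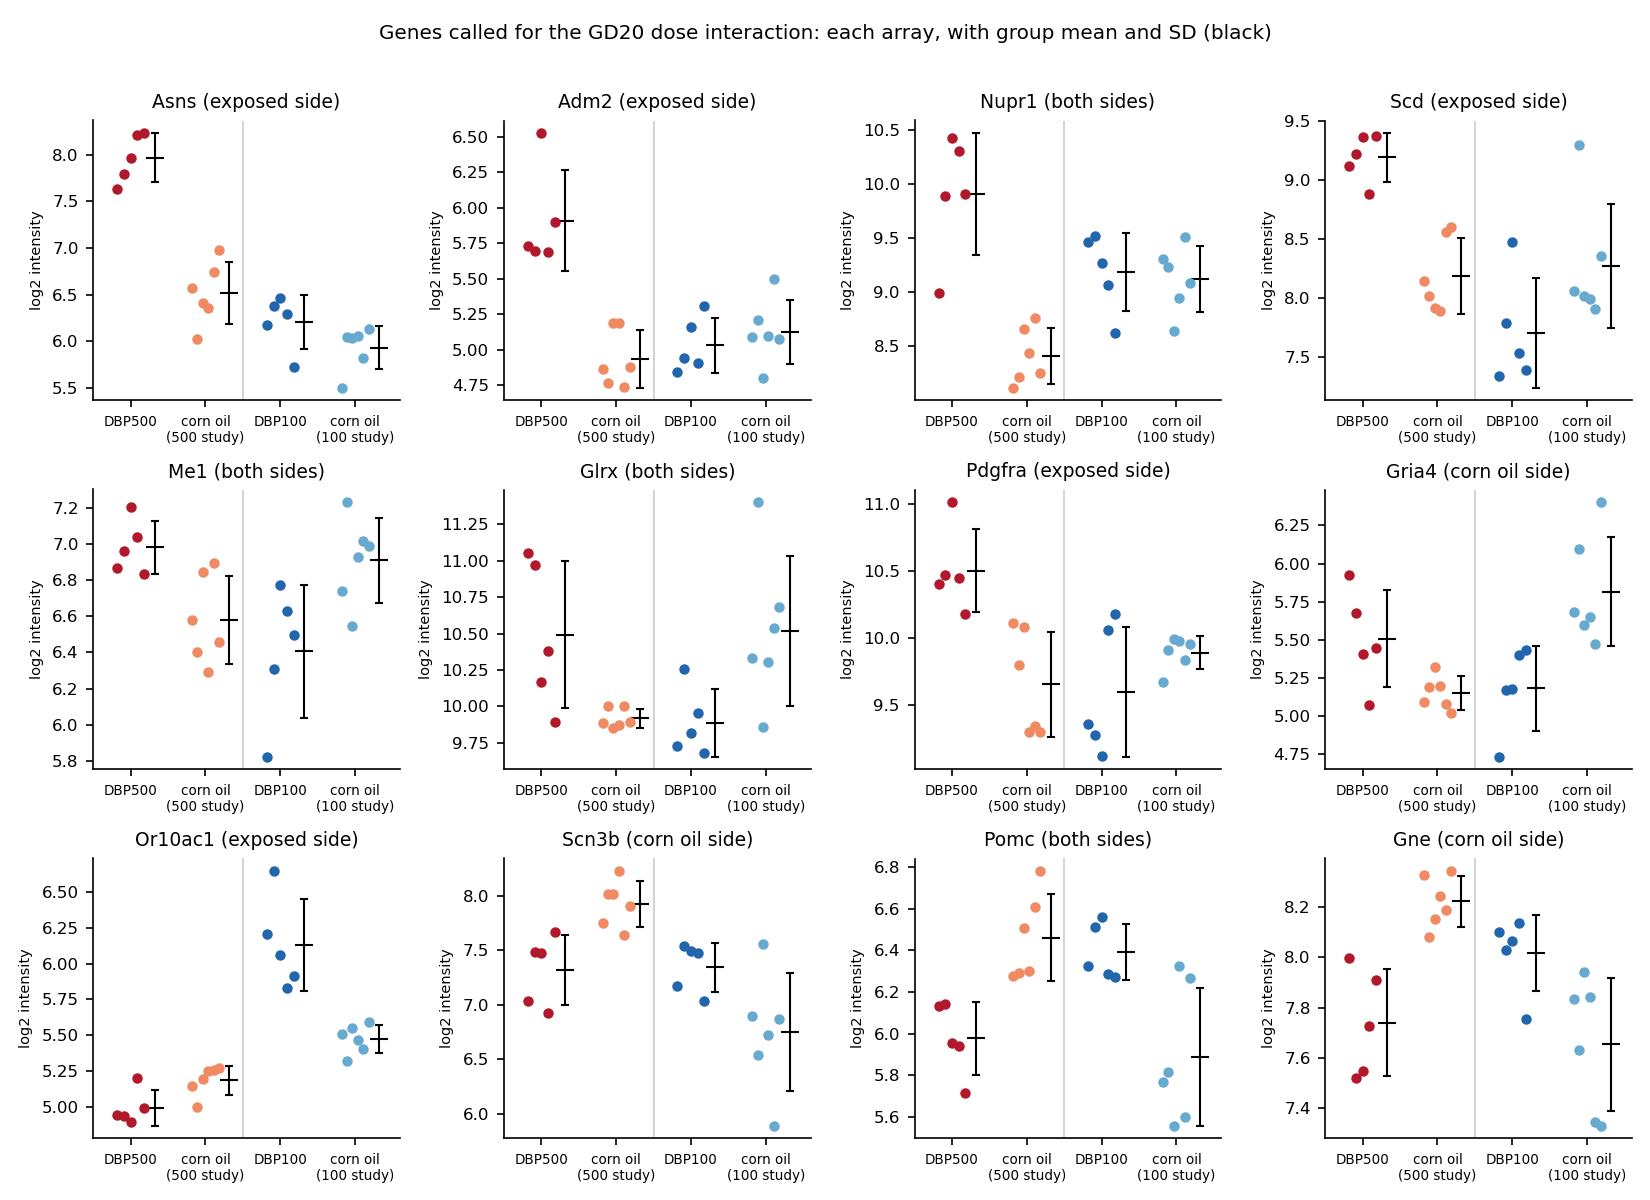
Log2 intensity of the 12 named genes called for the interaction on each GD20 array (points), with the group mean and SD in black, DBP500 and its corn oil group left of the line and DBP100 and its corn oil group right of it. Asns and Scd stand out in the DBP500 group, Scn3b and Gria4 differ between the corn oil groups, and Pdgfra splits within DBP100.

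The other 6 called probes carry no gene symbol in the tables used. The largest rise among them, probe ILMN_1370416, had an interaction of 1.67 ± 0.366, with an exposed difference of 0.35 and a corn oil difference of -1.32. ILMN_1350982 rose by 1.40 ± 0.297 through a corn oil difference of -1.45, and ILMN_1349662 fell by 1.21 ± 0.269 through an exposed difference of -1.02. For 16 of the 18 called probes the DBP500 and DBP100 effects had opposite signs, and the exceptions were Asns and Nupr1, for which both were above zero. The probes were picked for the difference between these effects, which favours opposite signs. The share over all probes was not computed, so the count is no result about these probes. At PND5, with arrays of other pups, DBP500 minus DBP100 had the sign of the GD20 interaction for 10 of 18 called probes, 0 of 18 had an unadjusted p under 0.05 in limma's test (background 9.03%), and 0 were called. In that comparison 7 probes were called in all (0.0516%), 2 higher (0.0147%) and 5 lower (0.0368%). Asns had a PND5 difference of 0.26 and Scd of -0.26.

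Over all probes the exposed difference had a root mean square of 0.36 on the log2 scale and the corn oil difference one of 0.41. Between the exposed groups 1529 probes were called (11.3%), 613 higher (4.51%) and 916 lower (6.75%) in DBP500 litters. Between the corn oil groups 2991 were called (22%), 1402 higher (10.3%) and 1589 lower (11.7%) in the DBP500 study. The split between higher and lower moved with the scaling. For the exposed difference it was 1503 higher and 437 lower with a median shift, 154 and 5827 with normalization within each study, and 175 and 7406 in the authors' table. For the corn oil difference it was 2351 higher and 1090 lower, 303 and 6665, and 318 and 7923 on the same scales. At an unadjusted p under 0.05 the exposed difference had 24.9% of probes and the corn oil difference 34.6%. The parts share 842 called probes, 55.1% of the exposed and 28.2% of the corn oil calls. Of these 840 have the same sign, so their parts cancel at least in part in the interaction. How far they cancel was not computed. Asns is among them, with parts of 1.76 and 0.58 and a called interaction of 1.18. Across the 13577 probes the exposed and corn oil differences correlated at Pearson's r = 0.61 (Spearman's rho = 0.58). These points share the study contrast, the probe and the joint normalization but no array.

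Some genes with large parts of similar size show the cancelling, and these examples were chosen after their values were seen. Pard6g, a cell polarity gene, read 8.42, 8.45, 7.54, 8.67 and 7.66 in DBP500 litters, against 4.81, 5.29, 5.81, 7.19 and 5.66 in DBP100 litters. Its corn oil arrays read 7.62, 8.27 and 8.64 (lowest, median, highest) in the DBP500 study, against 5.66, 6.11 and 6.65 in the DBP100 study. The exposed difference of 2.39 (adjusted p = 2.61e-06) and the corn oil difference of 2.08 (adjusted p = 2.96e-06) left an interaction of 0.31 (adjusted p = 0.875). Stat6, the transcription factor of interleukin-4 signalling, was detected on 0 of 5 DBP500 and 5 of 5 DBP100 arrays, and on 1 of 6 DBP500-study and 6 of 6 DBP100-study corn oil arrays. Its interaction was 0.08 (95% interval -0.58 to 0.74). Pnlip, pancreatic lipase, and Spock2, a matrix proteoglycan, had parts of -3.08 and -2.51 and of 1.99 and 1.68, and interactions of -0.57 (adjusted p = 0.893) and 0.30 (adjusted p = 0.951). Large parts did not always cancel. Plekhf2 read 5.06 to 5.66 in DBP500 and 9.115 to 9.82 in DBP100 litters. Its corn oil arrays spread over 5.255 to 9.60 in the DBP500 study and 7.43 to 9.62 in the DBP100 study, and its interaction was not called.

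Axin2, a feedback inhibitor of Wnt signalling, had an exposed difference of 2.20 (adjusted p = 0.000142) beside a corn oil difference of 0.80 (adjusted p = 0.0986). It read 9.33, 8.97, 9.12, 8.35 and 9.07 in DBP500, against 6.96, 6.66, 5.72, 7.36 and 7.14 in DBP100 litters, with no overlap. Its corn oil arrays of the DBP100 study spread over 6.93 to 9.72 (SD 1.26), and the interaction of 1.40 ± 0.523 was not called (adjusted p = 0.292). On the corn oil side the guanine exchange factor gene Net1 fell by 2.26 (adjusted p = 2.46e-06) and the steroid reductase family gene Akr1c12 by 2.01 (adjusted p = 2.46e-06) in the DBP500-study corn oil litters. Their interactions were 1.22 (adjusted p = 0.298) and 1.06 (adjusted p = 0.315). Both genes split along the DBP100 replicates. Net1 read 6.54, 6.06 and 5.93 in replicates 1 to 3 and 8.27 and 8.73 in replicates 4 and 5. In the same order Akr1c12 read 12.73, 12.69 and 12.19 and then 13.95 and 14.39.

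Each dose against its own corn oil group called few probes: 41 for DBP500 (0.302%), 24 higher (0.177%) and 17 lower (0.125%), and 80 for DBP100 (0.589%), 11 higher (0.081%) and 69 lower (0.508%). These effects share no array, and no probe was called in both. With calls this few among 13577 probes a shared probe would be rare without any link, so its absence is no result about the doses. Over all 13577 probes the DBP500 and DBP100 effects correlated at r = -0.06 (rho = -0.07), points that share the probe and the joint normalization. For the 24 probes raised by DBP500 the DBP100 effect was above zero for 12 and below for 12, with a median of 0.02, which is also the median over all probes. Of them 1 had an unadjusted p under 0.05 (background 11.4%), Scd, in the opposite direction. For the 17 lowered by DBP500 the DBP100 median was 0.02 as well, with 10 above and 7 below zero. The 95% interval of the DBP100 effect lay short of the DBP500 estimate for 24 of 24 and 17 of 17, estimates that were picked for passing and are therefore on the large side. Without DBP100 replicates 1 to 3 the DBP100 median over the 24 was -0.11, and without replicates 4 and 5 it was 0.09.

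The other way round, the 69 probes lowered by DBP100 had a median DBP500 effect of 0.01, 36 above and 33 below zero. The 11 raised by DBP100 had one of -0.03. The DBP100 calls rest on few arrays: 0 to 466 probes were called when 1 array was left out, 0 without DBP100 replicate 2 and 466 without replicate 4. The examples in the next sentences, other than Dsc3, were chosen after their values were seen. Cck, the cholecystokinin precursor, had effects of -1.55 for DBP500 and -0.19 for DBP100 (interaction -1.36, adjusted p = 0.105). Spock1, a matrix proteoglycan, had -1.01 and 0.18. Dsc3, a desmosomal cadherin of basal keratinocytes, had 0.15 for DBP500 and -1.52 for DBP100, and Cdkn1a, the p21 cell cycle inhibitor, had 0.46 and -1.60. Their exposed differences were 0.19 and 0.22 and their corn oil differences -1.48 and -1.84. The exposed differences share the DBP100 arrays with the DBP100 effect, and the corn oil differences share the DBP100-study corn oil arrays with it. Dsc3 read 6.43, 5.64 and 5.14 in DBP100 replicates 1 to 3 and 7.85 and 7.475 in replicates 4 and 5. Its corn oil arrays of that study read 7.51 to 8.75. Dkk3, a secreted glycoprotein of the Dickkopf family, differed: it rose by 0.77 with DBP100, its DBP500 effect was 0.66 (95% interval 0.30 to 1.03), and its interaction was -0.11 (95% interval -0.63 to 0.40).

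**Figure D4:**
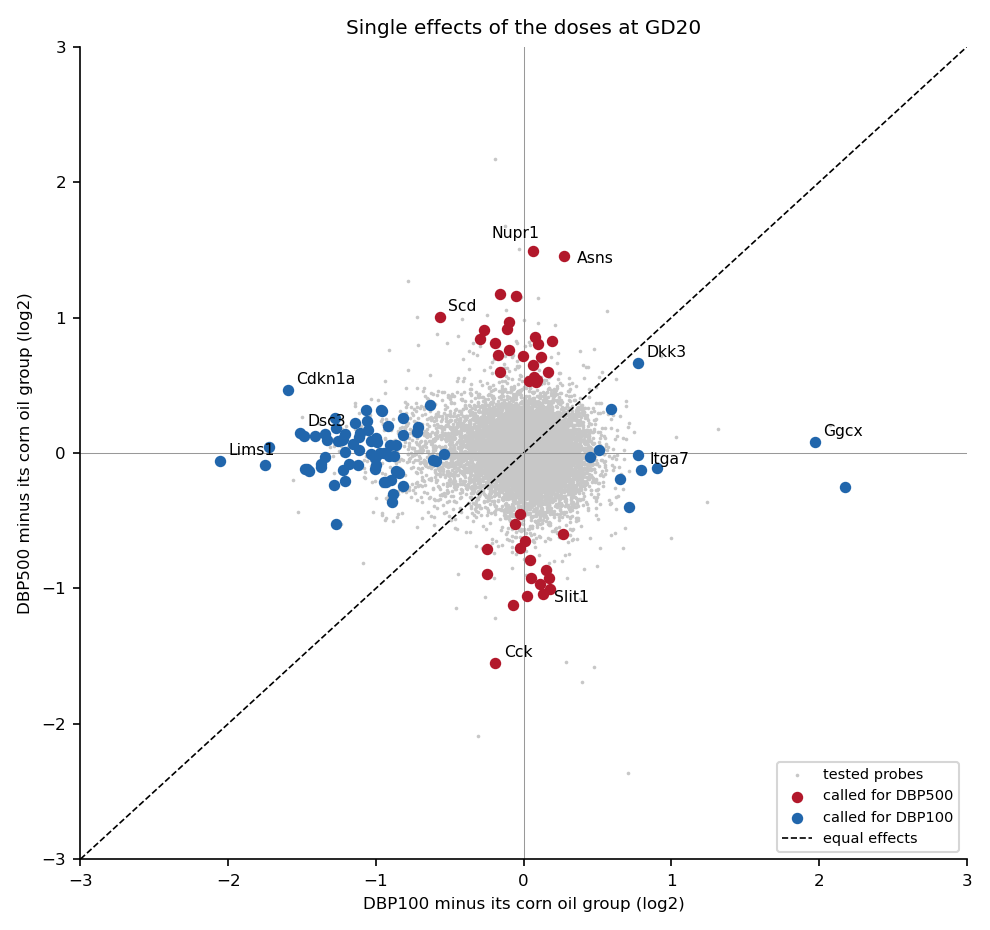
Each tested probe by the DBP100 effect (horizontal, log2) and the DBP500 effect (vertical, log2), with probes called for either effect coloured and the dashed line marking equal effects. The calls of each dose spread along their own axis near zero on the other, and Dkk3 lies near the line of equal effects.

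Lists of cell type markers differed in their median interaction, with few single calls. Of 21 tested genes of differentiated epidermis 20 had an interaction above zero and 1 below, with a median of 0.47, and 0 were called in limma's test (10 with an unadjusted p under 0.05, background 10.7%). The median exposed difference was -0.17, with 1 gene called higher and 1 lower, near the background of 11.3%. The median corn oil difference was -0.57, with 0 called higher (background 10.3%) and 13 lower (11.7%). The summed intensity of the list was 20043 to 27897 units in DBP500, against 17049 to 22374 in their corn oil litters, and 21533 to 28462 in DBP100, against 25682 to 37256 in theirs, and in the same order of groups 1, 2, 2 and 2 of the 21 genes were detected on no array. Krt10, a keratin of differentiating layers, read 11.86, 12.02, 11.19, 12.17 and 10.63 in DBP500, against 10.04, 11.73 and 12.18 in their corn oil litters. It read 11.20, 10.76, 11.13, 12.79 and 12.85 in DBP100, against 12.70, 12.90 and 13.30 in theirs. DBP100 replicates 4 and 5 lay inside their corn oil range and replicates 1 to 3 below it, and the interaction of 1.24 was not called (adjusted p = 0.282). Klk7, a skin protease, had parts of 0.08 and -1.06, and Cnfn, a cornified envelope gene, of -0.38 and -1.59, while the envelope gene Sprr1a had 1.15 and -0.32. The list's median interaction was 0.54 without DBP100 replicates 1 to 3 and 0.50 without replicates 4 and 5, and its median exposed difference was -0.03 and -0.04 in these fits. Basal keratinocyte genes had a median of 0.03 (10 tested).

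Several lists lay below zero. The median was -0.48 for 24 skeletal muscle genes (5 higher, 19 lower), -0.33 for 20 leukocyte and macrophage genes (2 and 18), -0.33 for 16 Schwann cell and nerve genes (3 and 13), -0.32 for 15 mast cell genes (4 and 11), -0.29 for 14 smooth muscle genes (3 and 11) and -0.13 for 14 endothelial genes (3 and 11). In these 6 lists 0 genes were called in limma's test, with 3, 6, 4, 2, 6 and 2 at an unadjusted p under 0.05. Beside the background of 10.7%, the 3 of 24 skeletal muscle, 2 of 15 mast cell and 2 of 14 endothelial genes lie near it. Without DBP100 replicates 1 to 3 the medians of these 6 lists were -0.36, -0.21, -0.19, -0.07, -0.35 and -0.21, and without replicates 4 and 5 they were -0.57, -0.41, -0.38, -0.41, -0.40 and -0.15. The level varied within every group: the summed intensity of the skeletal muscle list was 1830 to 3084 units in DBP500, against 2186 to 6210 in their corn oil litters, and 1788 to 4714 in DBP100, against 1669 to 9444 in theirs, with 6, 4, 7 and 3 of the 24 genes detected on no array of the group. Myh3, the embryonic myosin heavy chain, had an interaction of -2.06 ± 0.998 (adjusted p = 0.459), and Tnnc1, a troponin, of -1.46 ± 0.527 (adjusted p = 0.280).

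The leukocyte list had a median exposed difference of -0.28, with 7 of 20 genes called lower (background 6.75%) and 0 higher (4.51%) in DBP500 than in DBP100 litters, beside a corn oil median of 0.02. The exposed median was -0.14 without DBP100 replicates 1 to 3 and -0.34 without replicates 4 and 5. C1qa, a chain of complement C1q made by macrophages, read 7.91, 7.99, 7.92, 7.88 and 8.18 in DBP500, against 8.13, 8.43 and 8.69 in their corn oil litters. It read 9.25, 8.88, 8.87, 8.88 and 8.83 in DBP100, against 8.38, 8.76 and 9.06 in theirs. All DBP500 arrays lay below all DBP100 arrays, with an exposed difference of -0.96 (adjusted p = 1.16e-05) and an interaction of -0.65 (adjusted p = 0.179). The list's summed intensity was 5229 to 6472 units in DBP500, against 6487 to 8090 in their corn oil litters, and 7362 to 9486 in DBP100, against 6491 to 8281 in theirs, with 3, 4, 4 and 3 of the 20 genes detected on no array of the group. The part of cell content in the interaction was not tested.

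Among steroid receptors and steroid-responsive genes (19 tested, median -0.09) Pomc was the only call. Hsd11b2, which inactivates glucocorticoids, had an interaction of -0.83 (adjusted p = 0.185), and the glucocorticoid-induced genes Fkbp5 and Per1 had -0.61 (adjusted p = 0.220) and 0.81 (adjusted p = 0.208). Per1 and Fkbp5 lay mostly on the corn oil side, with corn oil differences of -0.80 and 0.41 and exposed differences of 0.02 and -0.20. Genital tubercle patterning genes showed no common direction (23 tested, median 0.07, 13 higher and 10 lower) with 0 called in limma's test and 4 at an unadjusted p under 0.05 (background 10.7%). The median turned to -0.12 without DBP100 replicates 1 to 3 and to -0.05 without replicates 4 and 5. Of the 4 genes Hoxd3 had -0.79, Ctnnb1, the Wnt effector beta-catenin, 0.88, the growth factor receptor Fgfr2 0.56 and the ligand Bmp2 0.57. PPAR targets and fatty acid oxidation, a list relevant to phthalates as peroxisome proliferators in rodent liver, had a median of 0.01 over 23 tested genes, 12 higher and 11 lower, with 0 called in limma's test and 1, Acadl, at an unadjusted p under 0.05 (background 10.7%). That median was 0.07 without DBP100 replicates 1 to 3 and -0.01 without replicates 4 and 5. Adipocyte genes had a median of 0.02 (13 tested), which turned sign under other scalings (-0.01 to 0.05) and was 0.11 without DBP100 replicates 1 to 3 and -0.07 without replicates 4 and 5. Immediate-early and heat shock genes (18 tested, 15 higher and 3 lower) and erythroid genes (9 tested, 8 and 1) had a median of 0.32 each, with 0 calls. In limma's test 2 of 18 and 0 of 9 had an unadjusted p under 0.05, near or under the background of 10.7%. The erythroid list mean had an SD of 0.52 between DBP100 arrays and 0.51 between their corn oil arrays.

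**Figure D5:**
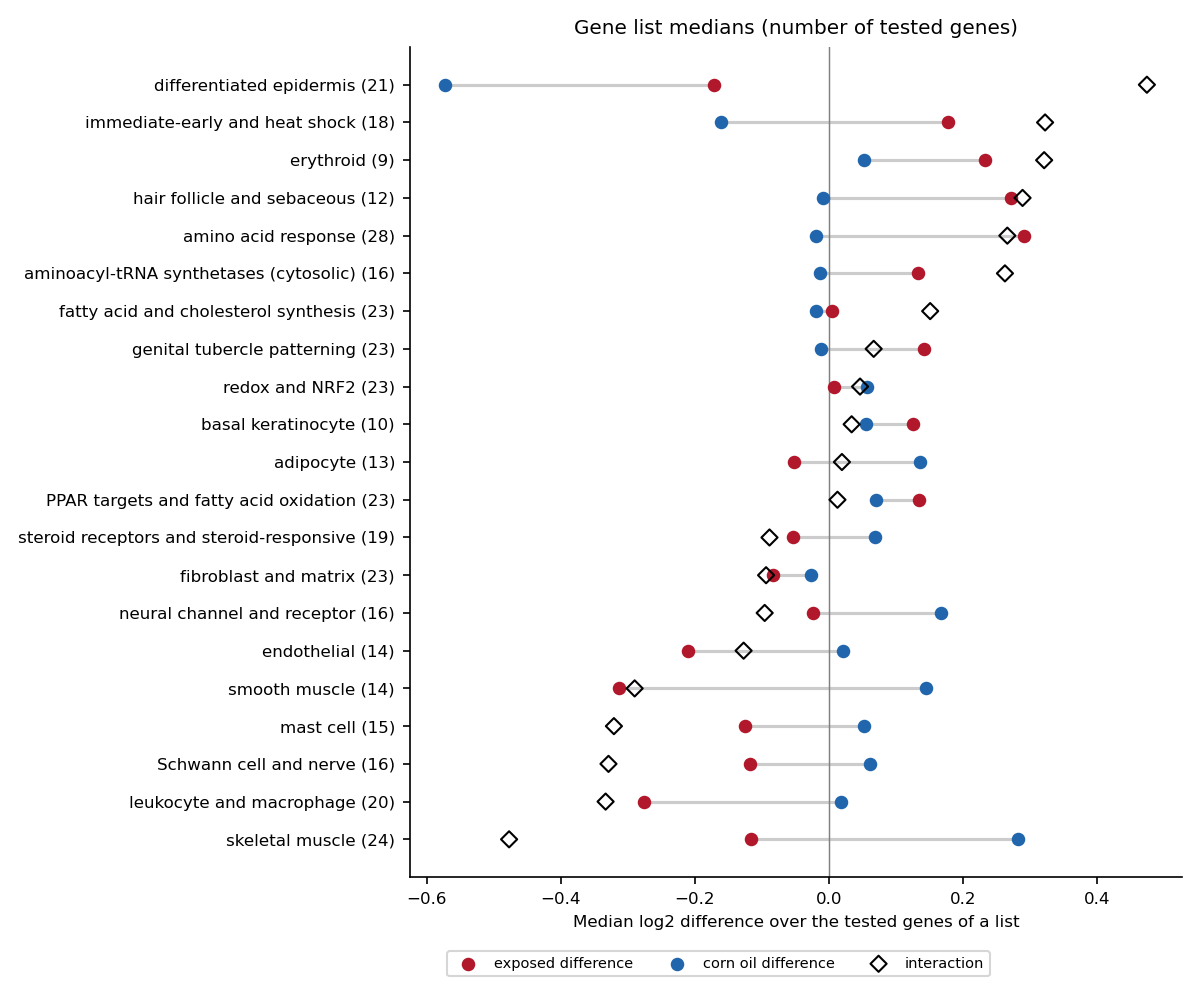
Median log2 difference over the tested genes of each list (number in brackets): the exposed difference (red), the corn oil difference (blue) and the interaction (open diamonds), ordered by the interaction. The differentiated epidermis list has the highest interaction median, 0.47, with its corn oil median at -0.57, and the skeletal muscle list the lowest, -0.48; the interaction median is not the difference of the other medians.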

How the data were processed

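RNA of 2 pooled foreskins per litter was read on 43 Illumina beadchip arrays, and the GD20 group means come from 22 of them. The deposited tables hold probe intensities and a detection p-value per probe and array, not normalized, per the file headers. limma is named in the submitters' processing notes. The authors' processed intensity table, used as an alternative, has sorted values that agree within 0.166% between arrays of one study, with medians of 152.7, 124.2 and 137.6 units in the DBP100, DBP500 and PND5 sets.

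From the raw intensities all 43 arrays were background-corrected, quantile-normalized and log2-transformed together (neqc, offset 16; R 4.3.3, limma 3.58.1). Probes with a detection p under 0.05 on at least 5 arrays were kept, 13577 of 22523 (60.3%). One limma fit over 7 groups (prior degrees of freedom 5.48) gave two-sided p-values, adjusted by the Benjamini-Hochberg method over all probes tested. Every adjusted p in the text comes from it or from the named alternative. The number of arrays limits the precision. Each p-value sets a difference against the spread between litters within groups, pooled over all 43 arrays, those of PND5 among them. The median SD within a group was 0.19 to 0.23 in the GD20 groups and 0.26 to 0.28 in the PND5 groups. With the 4 GD20 groups fitted alone 2 probes were called for the interaction, 1 of them among the 18. Undetected groups have only a bound: the brighter group's mean was set against the higher of the dim probe's own signal and the lowest detected signal on each array.

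Gene names came from the platform annotation: 13793 probes have 1 symbol, 0 several and 8730 none. Of the symbols 13757 matched RefSeq and 4 were updated. Genes were named as interaction calls with a symbol, as up to 4 members of each list with the smallest unadjusted p under 0.05 and as the largest exposed or corn oil differences, and further names are said to be chosen after their values were seen. The members and lists were chosen with earlier results of these data known. Within a study, deviations of arrays of equal replicate number correlated at -0.17 to 0.18, so the numbers were not taken to pair the arrays. Alternatives changed the normalization, background correction, probe filter, groups fitted, weights, replicate block and arrays used.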

Additional observations from a re-analysis of the deposited data

Results flagged for a closer look

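Dixon's test was run on the 12 named called genes in each of the 4 GD20 groups, and chance flags about 1 in 20 groups. It picked 3 of 48. Adm2 read 6.53 in DBP500 replicate 3, against 5.69 to 5.90 in the other DBP500 litters. Gne read 7.76 in DBP100 replicate 5, against 8.03 to 8.14 in the other DBP100 litters. Scd read 9.29 in replicate 2 of the DBP100-study corn oil litters, against 7.91 to 8.36 in the others.

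The effects of DBP500 and DBP100, each against its own corn oil litters, differed by the interaction test for 18 probes. The difference was above zero for Scd (1.57), Nupr1 (1.43), Glrx (1.21), Asns (1.18), Pdgfra (1.14), Adm2 (1.07), Gria4 (0.99) and Me1 (0.90). It was below zero for Scn3b (-1.20), Pomc (-0.98), Or10ac1 (-0.85) and Gne (-0.85). Of the probes without a symbol, ILMN_1370416 had 1.67, ILMN_1350982 1.40, ILMN_1349662 -1.21, ILMN_1370183 -1.11, ILMN_1363044 -0.97 and ILMN_1372601 -0.86.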

How the results depend on the processing

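The interaction's 18 calls became 0 with a median shift in place of quantile normalization (1032 probes at an unadjusted p under 0.05 in limma's test), 7 without background correction, 0 with no filter on dim probes (1875 at an unadjusted p under 0.05), 2 with the 4 GD20 groups alone, 4 with a trended robust prior and 564 with array weights. They stayed within 1.5 times at 12, 17, 16 and 20 with the 22 GD20 arrays normalized alone, normalization within each study, the authors' table and detection on all arrays of a group. Of the 18 probes themselves 12, 12, 10 and 17 were among these calls. In settings chosen after seeing the data, the interaction had 4 calls without DBP100 arrays 1 to 3, 645 without arrays 4 and 5, and 549 without arrays 4 and 5 and DBP500-study corn oil array 6. The exposed difference had 5981 calls within study, 7581 in the authors' table, 2838 with array weights and 826 without DBP100 arrays 1 to 3, and the corn oil difference had 6968 within study and 8241 in the authors' table. The DBP500 effect had 18 calls with the median shift and 197 with array weights. The DBP100 effect had 152 in the authors' table, 121 without background correction, 44 without the filter, 6 with 4 groups, 1118 with array weights, and 2, 1159 and 1215 on the reduced sets of arrays above. Leaving out 1 array gave 0 to 126 calls for the interaction, 1080 to 1561 and 2466 to 3044 for the exposed and corn oil differences, 22 to 43 for DBP500 and 0 to 466 for DBP100. Scd passed in 14 of these 22 fits, Nupr1 in 12 and the other 10 named genes in 3 to 7 each. In 11 other planned settings Scd, Nupr1 and Pdgfra passed in 7, Me1 in 4, and Or10ac1, Adm2, Pomc and Gria4 in 2. With a replicate block within study the interaction had 0 calls (1354 at an unadjusted p under 0.05), DBP500 24 and DBP100 165. The interaction of the 12 named genes kept its sign in the alternatives run, and the genes were picked for large interactions, which favours a kept sign. The sizes moved. In the authors' table Adm2 had 0.38, Pomc -0.39, Gria4 0.39, Or10ac1 -0.33 and Me1 0.47. Scd had 1.31, Nupr1 1.32, Glrx 1.15 and Pdgfra 1.07 there, nearer to the reported sizes. Medians of the adipocyte, genital tubercle and PPAR lists turned sign, the first under other scalings and all 3 without some DBP100 arrays. In the scalings run the median farthest from the reported one by over 1.5 times was 0.18 for the amino acid response, 0.25 for fatty acid and cholesterol synthesis, 0.15 for hair follicle and sebaceous, 0.20 for erythroid, -0.21 for skeletal muscle, -0.19 for leukocyte, -0.16 for mast cell, -0.20 for Schwann cell, -0.07 for endothelial, 0.09 for basal keratinocyte, -0.02 for steroid-responsive and -0.05 for neural genes, and genital tubercle genes ranged over 0.03 to 0.13. The cause of these changes was not tested.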
